A study of Mus musculus with 4 samples.

Results

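Bone morphogenetic protein (BMP) signalling was followed in stem cells of the hair follicle bulge through 10 genes: the ligands Bmp2, Bmp4 and Bmp6, the receptor Bmpr1a, the signal carriers Smad1 and Smad5, the target genes Id1, Id2 and Id3, and the secreted antagonist Fst (follistatin). They were taken by symbol from the rows of the expression table whose platform annotation names exactly 1 gene. Each of the 10 genes had 1 such row, so that 10 rows of 28815 in the table were members, and none was left out by a filter. The mice were CD-1 males, 56 days of age after birth, a time that falls in the second resting phase (telogen) of the hair cycle. For 3 days one group received CSA intraperitoneally at 100 mg/kg and the other its vehicle. The labels do not spell out CSA, which in work on calcineurin usually means cyclosporine A, an inhibitor of that phosphatase. Cells that carried CD34 together with alpha6 integrin were sorted from skin, and RNA of 2 biological replicates per group was hybridised to 4 one-colour arrays. How many mice gave each replicate is not given in the labels, and no genotype other than the strain is named.

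BMPs are secreted ligands of the TGF-beta superfamily. They bring together type I receptors such as Bmpr1a and type II receptors such as Bmpr2, the type I receptor phosphorylates Smad1, Smad5 and Smad9, and these enter the nucleus with Smad4 to switch on target genes, among which the Id genes are the best known. Id proteins lack a DNA-binding region and hold E proteins and other helix-loop-helix factors away from DNA. In the hair follicle BMP signalling is known to keep bulge stem cells quiescent during telogen, with ligands made by the surrounding skin and by the follicle itself, and antagonists such as noggin and follistatin limit it outside and around the cells. Calcineurin dephosphorylates NFAT factors, and Nfatc1 in bulge cells is known to act downstream of BMP signalling.

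The promoters of Id2 and Id3 are shown because Id3 had the largest and Id2 the smallest difference between the groups among the Id genes. Both windows hold the 250 bases before the gene's start in RefSeq's mouse build GRCm38.p6, written 5′ to 3′ along the gene's own strand. The Id2 window is chr12:25096093-25096342 on the minus strand and the Id3 window chr4:136143572-136143821 on the plus strand. Capitals mark matches to GGCGCC, a GC-rich box that Smad1 and Smad5 can bind, and to CAGAC or its reverse complement GTCTG, the core Smad box.
Id2: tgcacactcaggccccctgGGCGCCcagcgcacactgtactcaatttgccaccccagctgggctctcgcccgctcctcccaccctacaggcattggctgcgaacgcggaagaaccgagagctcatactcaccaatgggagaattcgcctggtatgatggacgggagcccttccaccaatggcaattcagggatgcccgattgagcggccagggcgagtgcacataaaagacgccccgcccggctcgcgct
Id3: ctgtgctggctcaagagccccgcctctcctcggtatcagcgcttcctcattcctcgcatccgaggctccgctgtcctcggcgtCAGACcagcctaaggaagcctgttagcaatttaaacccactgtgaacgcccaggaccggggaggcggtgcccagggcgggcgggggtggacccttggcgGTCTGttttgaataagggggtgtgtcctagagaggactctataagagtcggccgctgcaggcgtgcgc
The Id2 window had 1 GGCGCC, which begins 231 bases before the start and reads the same on both strands, and no CAGAC on either strand. The Id3 window had 2 CAGAC matches, 1 on the plus strand beginning 167 bases before the start and 1 on the minus strand beginning 68 bases before it, and no GGCGCC. Over 32851 promoter windows of the same length, 9.59% held GGCGCC and 42.2% held CAGAC on either strand, and the motifs searched do not overlap one another in these windows. GGAAA, the core of NFAT sites, was searched on both strands as well and occurs in 55.6% of windows. It was in neither of these windows. A match is a matter of letters only, and the arrays measured no binding. Of the 10 members 7 had an entry in the promoter table. Bmp2, Id1 and Fst had none. Bmpr1a had 1 GGCGCC, Bmp6 had 1 CAGAC, and of the 3 starts listed for Smad5 1 had a GGCGCC and another a CAGAC, while the windows of Bmp4 and Smad1 held none of these motifs.

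Every value below is a log value relative to a baseline that the authors set for each row and that stays unknown. The base of the log was not stated and was taken as 2. Where a pair of values is given for a group, replicate 1 comes first. A value of 0 therefore means that the gene stood at its baseline, not that its RNA was absent, and values of different genes say nothing about which RNA was more abundant. Array medians lay between -0.02 and 0.06. Pearson correlations were taken over the 28815 rows of the table, which are not independent replicates. They were 0.52 between CSA replicate 2 and vehicle replicate 2 and 0.02 to 0.17 for the other array pairs. In 18.2% of the rows naming 1 gene the values of 2 arrays mirrored each other around 0 (within 2e-06), and 0 of the 10 members were among them. Cd34, the surface marker of the sort, stood far above its baseline on all arrays (1.75 and 3.60 in CSA, 4.05 and 4.25 in vehicle). Itga6, which encodes the alpha6 integrin, was at -0.70 and -0.53 in CSA, beside -0.9995 and 0.08 in vehicle.

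Between CSA and vehicle, Id3 was the member with the highest difference and Fst the one with the lowest. Id3 stood 0.91 ± 0.24 higher in CSA and Fst 1.27 on the log2 scale lower (difference -1.27 ± 0.39, where ± is limma's moderated standard error here and below, with 2 arrays per group). None of the 10 passed the test over the 21780 rows that name 1 gene. limma's adjusted p was 0.999 for each of them, and 0 rows of the table passed at 0.05, which is a background of 0%. limma's unadjusted p was 0.0176 for Id3 and 0.0301 for Fst, and above 0.05 for the other 8. Over all rows 2.97% were under 0.05 (646 rows), 1.91% as higher in CSA, like Id3, and 1.06% as lower, like Fst. The members were picked with earlier results of these arrays known, so that this share is a description. Means were higher in CSA for 6 members and lower for 4, beside 42% of all rows that were higher.

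CSA and vehicle arrays did not overlap for 6 members, and for 26.5% of all rows. Id3, Smad5 and Bmp2 were higher on both CSA arrays than on either vehicle array, where 11.3% of all rows were. Fst, Bmp4 and Bmpr1a were lower on both, where 15.2% were. How far the groups stood apart was very uneven. The gap between the nearest arrays of the groups was 0.58 for Fst and 0.56 for Id3, but 0.11 for Smad5, 0.08 for Bmp2, 0.06 for Bmpr1a and 0.0070 for Bmp4. With 2 arrays against 2 an exact permutation test over samples cannot give a two-sided p below 0.333, so none is given for single genes.

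**Figure D1:**
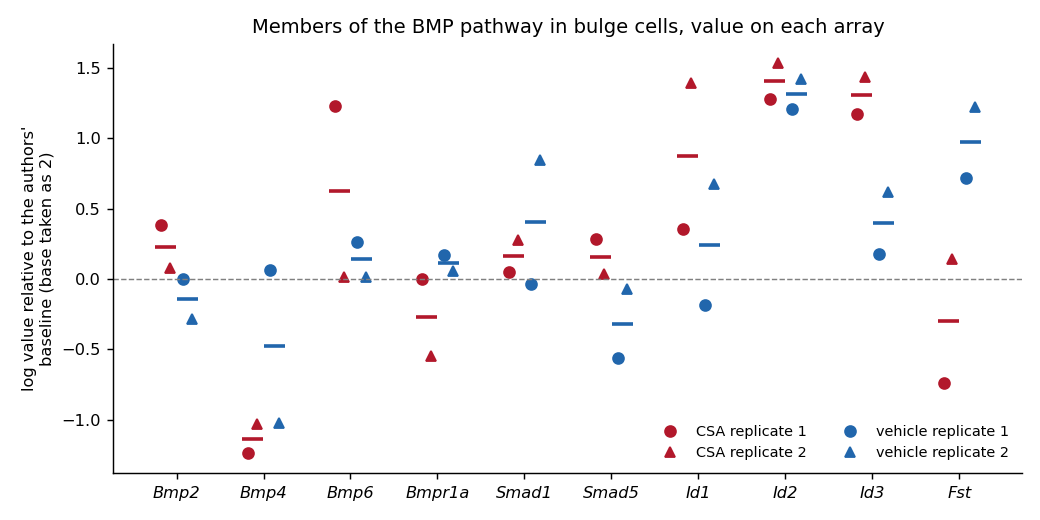
Value of each of the 10 members on each array (y axis, log value relative to the authors' baseline, base taken as 2), with CSA in red, vehicle in blue, replicate 1 as circles, replicate 2 as triangles and short bars for the group means. Id3 and Fst show groups that stand apart, Id2 lies between 1.21 and 1.53 on all 4 arrays, and Bmp4 is near 0 on vehicle replicate 1 only.

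The 3 ligands did not share a direction. Bmp2, a ligand whose level in the skin around the follicle is known to change with the hair cycle, was 0.38 and 0.08 in CSA, beside -0.00069 and -0.29 in vehicle. Both CSA arrays were above the baseline and both vehicle arrays at or under it, though neighbouring values lay close. The difference was 0.37 ± 0.21 (limma unadjusted p = 0.150), with a 95% interval from -0.21 to 0.95. Leaving out CSA replicate 1 lowered it to 0.22, and leaving out vehicle replicate 2 to 0.23.

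Bmp4, a ligand that the dermal papilla and other dermal cells make, was -1.24 and -1.03 in CSA, beside 0.06 and -1.02 in vehicle. A single array, vehicle replicate 1, was thus apart from the other 3, which lay at -1.02 or lower. The difference of -0.65 ± 0.42 (limma unadjusted p = 0.190) became -0.11 without vehicle replicate 1, and the other choices gave down to -1.19. Ranked among the rows of an array that name 1 gene, Bmp4 was at percentile 50.0 on vehicle replicate 1 and at 0.636 to 1.50 on the others. Vehicle replicate 1 was also the array with the highest value for 8 of 8 measured markers of interfollicular epidermis and 9 of 15 of dermal papilla and fibroblasts. For comparison it was the highest array for 9224 of the 21780 rows. Their part in the Bmp4 values was not tested. A change in the share of another cell type and a change of RNA per cell cannot be told apart in such bulk samples.

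Bmp6, which keratinocytes of the inner bulge layer are known to make, was 1.23 and 0.016 in CSA, beside 0.26 and 0.013 in vehicle. Here CSA replicate 1 stood alone, and the groups overlapped. The difference was 0.48 ± 0.46 (limma unadjusted p = 0.352). Leaving out CSA replicate 1 gave -0.12 and leaving out CSA replicate 2 gave 1.09. Fgf18, another signal of that inner layer, showed a different order, with 0.31 and 2.61 in CSA, beside 0.19 and 1.98 in vehicle. Bmp6 and Fgf18 were therefore high on different arrays. Fgf18 is 1 of 6 markers listed for that layer, which did not share an order. CSA replicate 2 and each vehicle array were the highest for 2 of the 6, and CSA replicate 1 for 0.

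Bmpr1a, the type I receptor through which BMPs act on follicle epithelium, was 0.0029 and -0.54 in CSA, beside 0.17 and 0.06 in vehicle. The vehicle arrays were close together and CSA replicate 2 was the low one. The difference of -0.38 ± 0.25 (limma unadjusted p = 0.194) was -0.66 without CSA replicate 1 and -0.11 without CSA replicate 2.

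The 2 signal-carrying Smads differed in opposite directions. Smad1 was 0.05 and 0.28 in CSA, beside -0.04 and 0.84 in vehicle, so that the vehicle arrays lay on either side of both CSA arrays. Its difference was -0.24 ± 0.35, and the value turned to 0.20 without vehicle replicate 2. Smad5, which does the same work as Smad1, was 0.28 and 0.03 in CSA, beside -0.56 and -0.07 in vehicle. Its groups did not overlap, and the difference was 0.48 ± 0.25 (limma unadjusted p = 0.123), with a 95% interval from -0.20 to 1.15. Leaving out vehicle replicate 1, the lowest array, gave 0.23.

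The Id genes stood above their baselines on all 4 arrays, apart from Id1 on vehicle replicate 1. Of the 10 members Id2, Id3 and Bmp6 were above the baseline on every array, as were 4.28% of all rows. Id3 was 1.17 and 1.43 in CSA, beside 0.17 and 0.62 in vehicle. Both CSA arrays were above both vehicle arrays, and the arrays within a group differed by 0.26 in CSA and 0.44 in vehicle, less than the distance between the groups. The difference of 0.91 would be a 1.88-fold higher level on a log2 scale. It had a 95% interval from 0.26 to 1.56 before adjustment, and leaving out single arrays gave 0.69 to 1.13. Of all rows 3.39% had a larger difference in either direction.

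Id1, the target gene that BMP reporters are usually built on, was 0.35 and 1.39 in CSA, beside -0.19 and 0.67 in vehicle. The means were higher in CSA, but the groups overlapped: arrays within a group differed by 1.04 and 0.86, more than the groups did. The difference was 0.63 ± 0.50 (limma unadjusted p = 0.273). Leaving out CSA replicate 2 gave 0.11 and leaving out vehicle replicate 1 gave 0.20, while the remaining choices gave 1.15 and 1.06.

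Id2 was 1.28 and 1.53 in CSA, beside 1.21 and 1.42 in vehicle. It was far above its baseline on every array, at percentiles 98.8 to 99.2 of all rows, and the groups overlapped in part, from 1.28 to 1.42. The difference was 0.09 ± 0.19, and its 95% interval from -0.43 to 0.61 does not show that the groups were alike. A larger difference was seen in 68.1% of rows. The interval of Id2 overlaps that of Id3, and the difference between these genes was not tested.

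Fst encodes follistatin, a secreted protein that binds activins tightly and several BMPs more weakly. It was -0.74 and 0.14 in CSA, beside 0.72 and 1.22 in vehicle. Both vehicle arrays lay above both CSA arrays, and CSA replicate 1 was the only array below the baseline. The difference of -1.27 ± 0.39 would be a 2.41-fold higher level in vehicle on a log2 scale, and 1.10% of rows had a larger one. Its 95% interval before adjustment ran from -2.34 to -0.20. Leaving out CSA replicate 1 gave -0.83 and leaving out CSA replicate 2 gave -1.71, so the size depended on the array left out. As the groups did not overlap, leaving out 1 array could not turn the direction. CSA replicate 1 was also the array with the lowest value for 10 of 14 bulge stem cell markers, and for 4902 of the 21780 rows. The part of this in the Fst values was not tested.

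**Figure D2:**
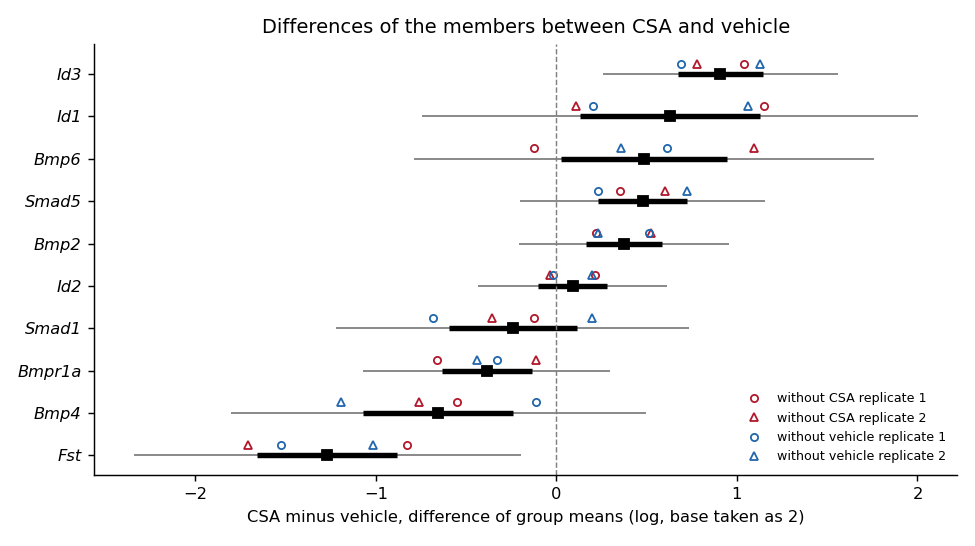
Difference of group means, CSA minus vehicle (x axis, log scale with the base taken as 2), for each member: squares are the differences, thick bars 1 moderated standard error, thin lines the 95% interval before adjustment and open symbols the differences without 1 array. Only the lines of Id3 (0.26 to 1.56) and Fst (-2.34 to -0.20) do not reach 0, and the open symbols of Bmp6, Smad1 and Id2 fall on both sides of it.

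The activin genes were read beside Fst, since follistatin is best known as a blocker of activins. Inhbb, which encodes the beta B chain of activin B, was 0.87 and 0.89 in CSA, beside 0.17 and 0.07 in vehicle. Arrays of a group were within 0.10 of each other, and the groups stood 0.70 apart. The difference was 0.76 ± 0.16 (limma unadjusted p = 0.00774, adjusted p = 0.999), with 0.71 to 0.81 when single arrays were left out. Inhbb had the largest absolute t of the 5 activin rows, by which it was named. Its unadjusted p was the smallest of the 68 pathway rows besides the members, so it is a picked extreme. Of all rows 1.91% were higher in CSA with an unadjusted limma p under 0.05. For 11.3% of all rows both CSA arrays were above both vehicle arrays. The other 4 activin and inhibin chain genes had overlapping groups, among them Inhbc at -0.17 ± 0.25 and Inhbe at 0.08 ± 0.16. Leaving out single arrays gave 0.012 (without vehicle replicate 1) to 0.16 (without vehicle replicate 2) for Inhbe, and turned Inhbc to 0.11 without vehicle replicate 1. Fst was thus lower and Inhbb higher on both CSA arrays than on both vehicle arrays, and neither passed over all rows. A link between them was not tested.

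The rest of the pathway was taken from lists by role, which share some genes. They held 67 measured genes besides the members, on 68 rows, since Smurf2 (named for this reason) had 2 rows that pointed in opposite directions (-0.22 ± 0.40 and 0.11 ± 0.37). Of the 68 rows 24 were higher and 44 lower in CSA, while 42% of all rows were higher. Their median difference was -0.07, beside -0.04 over all rows. The median of these 68 was -0.0023 without vehicle replicate 1, beside 0.010 over all rows in that setting. limma called 0 of them, with 1 row higher and 1 lower at an unadjusted p under 0.05, beside 1.91% and 1.06% of all rows. The groups did not overlap for 14.7% of them, under the 26.5% of all rows.

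Among the extracellular antagonists other than Fst 2 were higher and 14 lower in CSA (median -0.18). Vehicle replicate 1 was the highest array for 8 of these 16 rows. The groups did not overlap for 12.5% of them, beside 26.5% of all rows. Crim1, a membrane protein that binds BMPs, was 0.09 and -0.30 in CSA, beside 0.58 and 0.91 in vehicle. Its groups did not overlap, and it differed by -0.85 ± 0.24 (limma unadjusted p = 0.0226, adjusted p = 0.999). Twsg1, which binds BMPs together with chordin, differed by -0.48 ± 0.37 and by -0.0036 without CSA replicate 1. Fstl3, a follistatin relative that also binds activins, was one of the 2 higher ones, at 0.23 ± 0.18, and at 0.089 without CSA replicate 2. Grem1 and Sostdc1 were added after their values were seen. Grem1, the BMP antagonist gremlin, was 0.06 and 3.27 in CSA, beside 2.55 and 3.59 in vehicle, so that 1 array, CSA replicate 1, set its difference of -1.41 ± 1.19, and without that array it was 0.20. Sostdc1 was -2.62 and 1.40 in CSA, beside -0.59 and 0.23 in vehicle, with both vehicle arrays between the CSA arrays, a difference of -0.42 ± 1.45, and 1.59 without CSA replicate 1.

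Of the other ligand genes none had an unadjusted limma p under 0.05, with 2 higher and 9 lower in CSA and a median of -0.07. Bmp3, a BMP that opposes the others, differed by -0.22 ± 0.19, Bmp10 by 0.18 ± 0.16 and Bmp8b by -0.23 ± 0.25. Leaving out single arrays gave -0.38 (without CSA replicate 1) to -0.058 (without CSA replicate 2) for Bmp3. For Bmp10 it gave 0.090 (without vehicle replicate 2) to 0.27 (without vehicle replicate 1). Bmp8b came to -0.022 when vehicle replicate 1 was left out, to -0.051 when CSA replicate 2 was, and to -0.45 when vehicle replicate 2 was. The 11 receptor and co-receptor genes besides Bmpr1a had 3 higher and 8 lower (median -0.15). For 27.3% of them the groups did not overlap, beside 26.5% of all rows. The activin type I receptor Acvr1b was -0.05 and -0.04 in CSA, beside 0.98 and 0.16 in vehicle, a difference of -0.61 ± 0.32 that was -0.21 without vehicle replicate 1. The type II receptors Acvr2b and Acvr2a differed by -0.30 ± 0.18 and -0.31 ± 0.27. Without vehicle replicate 1 the difference of Acvr2b was -0.17, and without vehicle replicate 2 that of Acvr2a was 0.014. For Acvr1b and Acvr2b both CSA arrays were the lower ones.

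Smads and their regulators were split, with 7 rows higher and 7 lower besides Smad1 and Smad5 (median -0.01). For 14.3% of these rows the groups did not overlap, beside 26.5% of all rows. Skil, which encodes a corepressor that binds Smads, was 1.33 and 0.30 in CSA, beside -0.08 and 0.08 in vehicle, a difference of 0.82 ± 0.39. Ppm1a, a phosphatase known to remove the activating phosphate from Smads, was 0.75 and 0.11 in CSA, beside -0.52 and -0.09 in vehicle (0.74 ± 0.31). Neither gene's groups overlapped, and in both CSA replicate 1 was the highest array. Without that array the differences were 0.30 and 0.42. Tob2, of a family of antiproliferative proteins, differed by -0.21 ± 0.19, by -0.081 without CSA replicate 2 and by -0.095 without vehicle replicate 2.

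Among BMP target genes other than Id1, Id2 and Id3, 9 were higher and 4 lower in CSA (median 0.06). For 7.69% of them the groups did not overlap, beside 26.5% of all rows. Msx2, a homeobox gene that BMPs induce in epithelium, was 0.05 and 1.40 in CSA, beside -0.16 and 0.18 in vehicle. Its difference of 0.72 ± 0.51 was 0.04 without CSA replicate 2. Foxc1, which was also taken as a bulge stem cell marker, differed by 0.61 ± 0.43, and was lowest on vehicle replicate 1 (-0.26), the only array below its baseline. Without that array its difference was 0.12, and leaving out CSA replicate 1 gave 0.31. Id4, the remaining Id gene, went the other way: it was 0.42 and 0.33 in CSA, beside 0.57 and 0.64 in vehicle, with groups that did not overlap and a difference of -0.23 ± 0.16. The E protein genes Tcf4, Tcf3 and Tcf12, whose products Id proteins bind, differed by 0.39 ± 0.34, 0.13 ± 0.32 and -0.08 ± 0.22, and the groups of all 3 overlapped. The difference of Tcf4 dropped to 0.078 when vehicle replicate 1 was left out, and to 0.094 when CSA replicate 2 was.

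**Figure D3:**
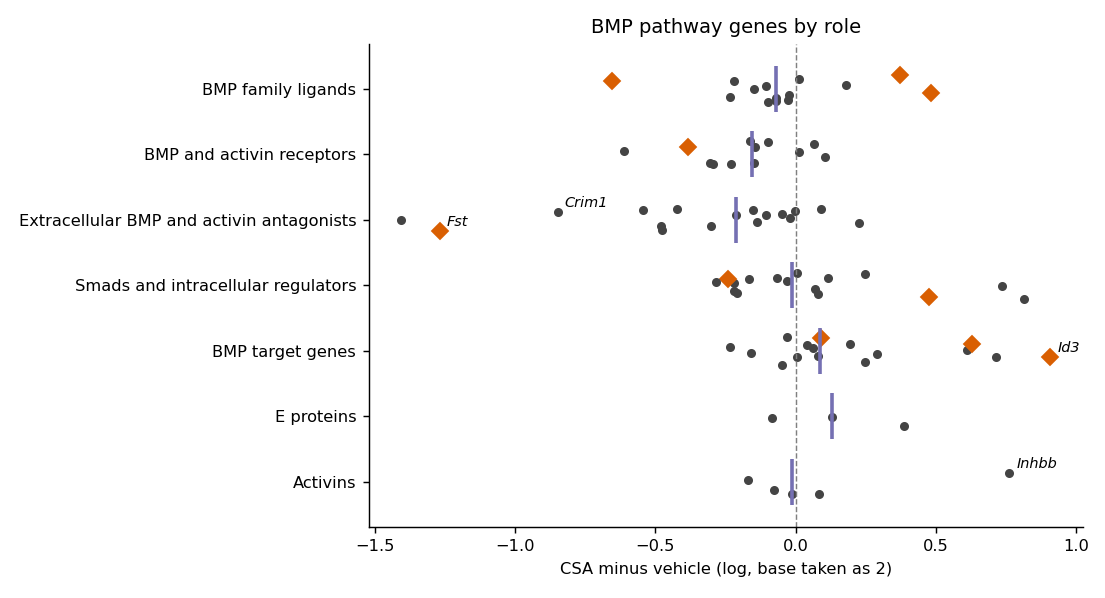
Difference between CSA and vehicle (x axis, log scale with the base taken as 2) for every measured row of the 7 role lists, with the 10 members as orange diamonds, other genes as grey dots and list medians as purple bars; vertical scatter within a list has no meaning. Grem1, Fst and Crim1 lie at the low end of the antagonists and Id3 at the high end of the target genes, while the medians lie between -0.21 and 0.13.

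Marker genes of the cells a sort from skin could hold were read on the same arrays. The 14 bulge markers had list medians of 0.38 and 1.01 in CSA, beside 0.71 and 0.97 in vehicle. By the mean 5 of them were higher and 9 lower in CSA. On both CSA arrays 4 were lower than on either vehicle array, where 15.2% of all rows were, and 0 were higher on both. Cd34 was among those 4, with a difference of -1.47 ± 0.67 that was -0.55 without CSA replicate 1 and -2.40 without CSA replicate 2. Interfollicular epidermis had medians of -1.03 and -0.78 in CSA, beside 0.43 and -0.49 in vehicle, and all 8 of its measured genes were lower in CSA by the mean. Dermal papilla and fibroblast markers had 0.03 and -0.14 in CSA, beside 0.15 and -0.05 in vehicle, adipocyte markers -0.02 and -0.06 against 0.18 and -0.02, and endothelial markers -0.02 and -0.10 against 0.19 and -0.01. Vehicle replicate 1 had the highest median of each of these 4 lists. It also had the highest median for immune markers (0.14) and melanocyte markers (0.14), though among the 7 melanocyte rows it was the highest array for 1, and each CSA array for 3. The 6 inner bulge layer markers had 0.14 and 0.50 in CSA, beside 0.21 and 0.02 in vehicle. As all values are centred, a marker that is absent cannot be told from one at its baseline. Without vehicle replicate 1 the difference was 0.69 for Id3 and -1.52 for Fst, and without CSA replicate 1 it was 1.04 and -0.83. The groups of both genes do not overlap, so leaving out 1 array could not turn either direction and is no test of cell types. The part of other cell types in these differences was not tested.

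**Figure D4:**
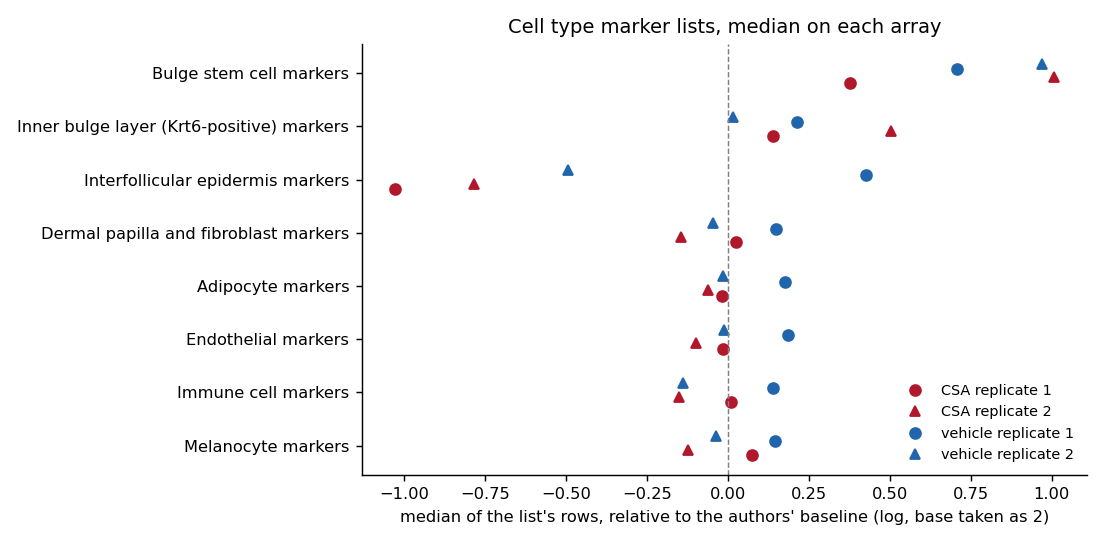
Median over the rows of each cell type marker list on each array (x axis, log value relative to the authors' baseline, base taken as 2), with CSA in red, vehicle in blue, replicate 1 as circles and replicate 2 as triangles. Vehicle replicate 1 lies to the right of the other arrays for the 6 lists of cells outside the follicle epithelium or of its pigment cells, and CSA replicate 1 is lowest for the bulge markers (0.38).

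The rows whose values lay nearest to those of Fst and of Id3 were sought by Euclidean distance over the 4 arrays. For Fst they were Zfp40 (distance 0.217), Lpp (0.465) and Tlcd4 (0.467). Zfp40 followed Fst most closely, at -0.80 and 0.26 in CSA, beside 0.73 and 1.06 in vehicle. For Id3 they were Prickle2 (0.257), Zfp37 (0.303) and Zfp941 (0.327). Prickle2 was 0.95 and 1.46 in CSA, beside 0.19 and 0.73 in vehicle. With 4 arrays and 21780 rows some rows will lie near any pattern, and nothing further is read from these names.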

How the data were processed

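One-colour arrays measured RNA of 4 samples of sorted bulge cells, 2 per group. Per the labels' protocols, 20 ng of total RNA went through 1 round of amplification into biotinylated cDNA. The deposited values are on a log scale, taken as log2, relative to a row baseline of the authors. Of that baseline, the software, the background correction and the normalization nothing is given in the sources used here. Only a build, mm8, comes from the submitters' processing notes. If the base were not 2, values and differences would scale by 1 factor and p-values would stay. Signal over background could not be read from these values. With 4 arrays the precision is low.

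Rows were named from the platform annotation: 21780 of 28815 named 1 gene (19935 genes), 1605 several and 5430 none. For 21689 of the first the identifier was found in RefSeq's table. The table of values has no coordinates, so promoter positions are those of RefSeq's GRCm38.p6 alone. Values were tested as deposited, without a filter or block, with limma 3.58.1 in R 4.3.3 (lmFit, eBayes without a trend, two-sided, Benjamini-Hochberg over the 21780 rows, threshold 0.05, prior degrees of freedom 2.05); the 95% intervals use the moderated errors. All rows were kept, so that a gene can have several. Shares and ranks among all rows refer to the 21780 rows. Replicates are called biological in the series design, with no more detail, and p-values measure the spread between these samples. Besides the members, the text names 3 genes per pathway list, those of largest absolute t in the limma fit (the rule allowed up to 4), the sort markers, Fgf18 and genes said to be added. For likeness, predicted genes and olfactory or vomeronasal receptors were left out. The members, lists, tests and the rule for named genes were chosen with earlier results of these data known. Scripts were tested on simulated arrays. Alternatives were 2 scalings between arrays, a trend, no moderation, 1 row per gene, a filter, all rows, a replicate block and leaving out each array.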

Additional observations from a re-analysis of the deposited data

How the results depend on the processing

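Directions of all 10 members were kept under both scalings between arrays, with a trend, without moderation, with 1 row per gene, with all rows of the table and with the replicate block. The smallest adjusted limma p of a member over all alternatives was 0.571 (Fst without CSA replicate 2), and 0 rows passed under any of them. The filter at the 25th percentile of the mean kept 7 members, since Bmp4, Bmpr1a and Smad5 lie under it. The count of rows at an unadjusted limma p under 0.05 was 646, and 1020 with the replicate number as a block. With that block the adjusted limma p of Id3, Fst and Id1 was 0.860 each (unadjusted 0.00945, 0.00636 and 0.0247). Without moderation the unadjusted p of the ordinary linear model was 0.0713 for Id3 and 0.130 for Fst, both above 0.05 (adjusted 0.993 each). The labels share only numbers between groups. Deviations of same-numbered arrays from their group means correlated at 0.22 over rows, with 2 pairs. Leaving out CSA replicate 2 gave a count of 1318, and leaving out vehicle replicate 2 gave 1653.

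Leaving out single arrays turned some directions. The differences then ranged from -0.12 to 1.09 for Bmp6, from -0.036 to 0.22 for Id2 and from -0.68 to 0.20 for Smad1. They ranged from -0.28 to 0.11 for Tcf12, from -0.27 to 0.53 for Tcf3, from -0.77 to 1.53 for Fgf18, from -0.45 to 0.11 for Inhbc, from -0.63 to 0.014 for Acvr2a, from -0.70 to 0.39 for Itga6, from -3.01 to 0.20 for Grem1 and from -2.43 to 1.59 for Sostdc1. At least 5 and at most 7 members were higher in CSA. With 1 array against 2, 7 to 9 members did not overlap, where 56.7% to 72.9% of all rows do not. The median of the other pathway genes ran from -0.13 to -0.0023, and that of all rows from -0.080 to 0.010. The cause was not tested.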
